A study of Mus musculus with 10 samples.

Results

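The 10 genes of the T cell receptor complex and its partner molecules were followed in whole mouse brain after inflammation of the skin. They were Cd3d, Cd3e, Cd3g and Cd247, which encode the signalling chains of the receptor, Cd4, Cd8a and Cd8b1, which encode the coreceptors, and Cd5, Cd6 and Cd28, which encode receptors that adjust the strength of the signal. The members were taken by gene symbol, and each of these 10 genes had 1 probeset of its own on the array, with 0 shared probesets, out of 19938 genes with a probeset of 1 symbol and 28856 probesets in all. The samples were perfused whole brains of 10 wild-type female C57BL/6 mice aged 6 to 8 weeks, measured with 1 array per mouse. The 5 control mice (n = 5) received 80 mg of an aqueous cream on the shaved back, and 5 mice received 80 mg of Aldara, a cream with 5% imiquimod, which is a ligand of the RNA sensor TLR7. Both creams were given every 24 h for 5 applications, and the animals were killed 24 h after the final one. The aqueous cream was not the vehicle of Aldara, so the ingredients of that vehicle and imiquimod cannot be told apart here.

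A T cell recognises peptides held by MHC molecules through a pair of variable receptor chains that have no signalling parts of their own. The signal is passed on by the CD3 chains gamma, delta and epsilon and by the zeta chain (Cd247), which carry tyrosine motifs that kinases of the T cell phosphorylate. CD4 binds MHC class II and CD8, a dimer of alpha and beta chains, binds MHC class I, and both bring the kinase LCK to the receptor. The healthy brain holds few T cells, mostly at its borders, and they enter in larger numbers in viral infection and autoimmune inflammation. Several of these genes are not restricted to T cells. The zeta chain also serves activating receptors of natural killer cells, CD8 alpha is carried by some mouse dendritic cells, and CD5 by some B cells.

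In the comparison of the groups, 3 members were higher and 2 were lower in the brains of Aldara-treated mice. Cd3g, Cd8b1 and Cd8a rose 1.42-fold, 1.31-fold and 1.14-fold in mean signal, Cd4 fell to 0.800 of its control level and Cd6 fell by 7.42%. Cd3d, Cd3e, Cd247, Cd5 and Cd28 did not pass the test. These calls rest on an adjusted p under 0.05 from limma with Benjamini-Hochberg adjustment over 23410 probesets. At that threshold 12.4% of all probesets tested were higher and 21% were lower. So 3 of 10 members higher and 2 of 10 lower stand beside a background in which 33.4% of these probesets were called in either direction. This background moves with the scaling, to 9.82% higher and 41% lower once every array is centred on 1 median and to 16.4% higher and 11.8% lower with the median of all differences shifted to 0. The median difference over the 10 members was 0.031 on the log2 scale, against -0.041 over all probesets tested. Whole brain RNA was measured, so a change in the number of cells that carry a gene and a change in RNA per cell cannot be told apart.

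All members gave low signals. The values are log2 expression values made by the authors with RMA, and the 100 member values ran from 5.57 to 7.67. Each lay below the median of the 23410 probesets with a symbol on its own array. That median lay between 8.1 and 8.14 in control mice and between 8.16 and 8.19 in Aldara-treated mice. RMA values carry no detection call, so it is unknown which members exceeded the array background. Arrays correlated at 0.998 to 0.999 within the control group, 0.995 to 0.999 within the Aldara group and 0.980 to 0.988 between groups. Markers of neurons, astrocytes and oligodendrocytes, the main cells of the labelled tissue, were bright, such as Snap25, Aldoc and Mbp at mean log2 values of 13.36, 13.09 and 12.16 in control mice. With 5 arrays a group, precision is limited by their number.

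**Figure D1:**
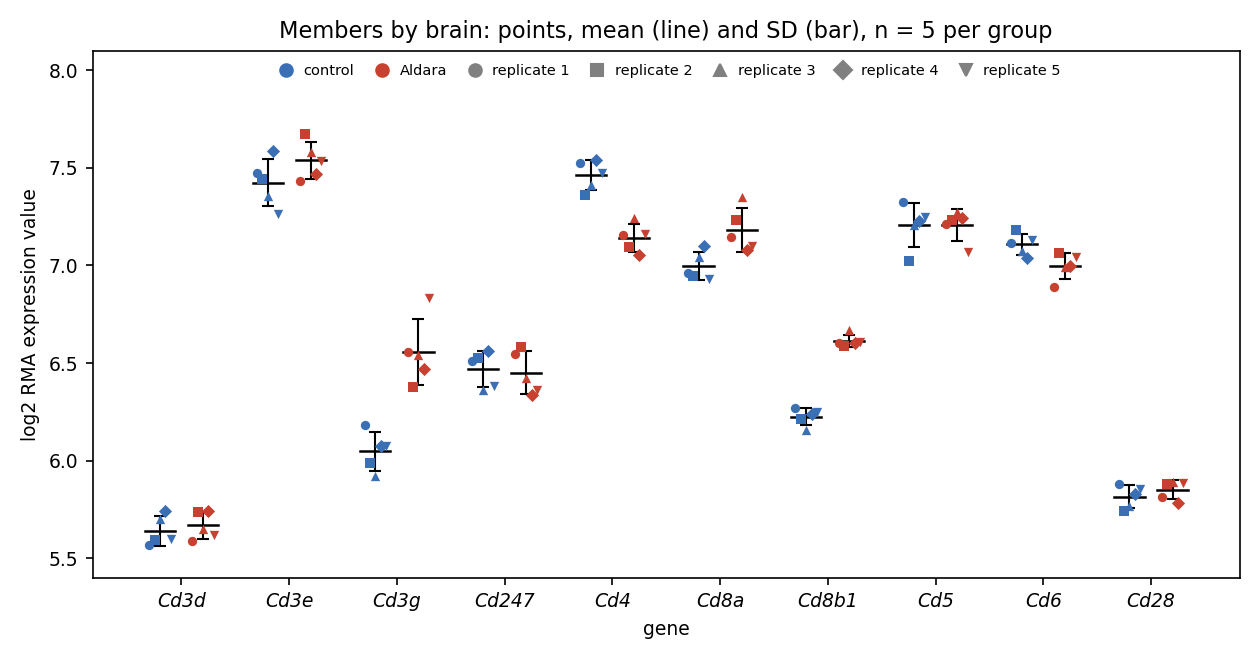
Log2 RMA expression value (vertical axis) of each of the 10 genes (horizontal axis) in 5 control brains (blue) and 5 Aldara brains (red), with marker shapes for the replicate number, lines for the mean and bars for the SD. Control and Aldara points are apart for Cd3g, Cd8b1 and Cd4 and overlap for the other 7 genes.

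The signals of the CD3 chains did not move together. Cd3g, Cd3d and Cd3e lie side by side on chromosome 9, where the start sites of Cd3g and Cd3d are 1355 bases apart on opposite strands and point away from each other, with no annotated gene between them. The start site of Cd3e is a further 27825 bases from that of Cd3d. The 300 bases around each start site (250 before and 50 after) are shown from RefSeq on GRCm38.p6, each read along its gene's strand. Whether these sequences have a part in the changes of the 3 genes was not tested. Capitals mark the letters CACCTG, the core of an E-box that E proteins of lymphocytes bind, or ACTTCC, a core bound by ETS factors, on either strand.
Cd3g, chr9:44980382-44980681, minus strand: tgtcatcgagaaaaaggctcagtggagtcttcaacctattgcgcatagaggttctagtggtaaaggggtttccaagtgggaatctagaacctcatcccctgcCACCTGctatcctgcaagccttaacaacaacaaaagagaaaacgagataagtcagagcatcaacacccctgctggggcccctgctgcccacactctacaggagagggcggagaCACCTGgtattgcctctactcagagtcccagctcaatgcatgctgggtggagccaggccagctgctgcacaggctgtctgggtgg
Cd3d, chr9:44981536-44981835, plus strand: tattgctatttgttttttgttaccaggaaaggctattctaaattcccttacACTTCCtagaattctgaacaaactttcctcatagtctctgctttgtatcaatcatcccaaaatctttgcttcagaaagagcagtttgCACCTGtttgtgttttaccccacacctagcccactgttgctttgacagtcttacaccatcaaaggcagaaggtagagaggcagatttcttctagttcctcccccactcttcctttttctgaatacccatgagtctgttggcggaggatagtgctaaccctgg
Cd3e, chr9:45009562-45009861, minus strand: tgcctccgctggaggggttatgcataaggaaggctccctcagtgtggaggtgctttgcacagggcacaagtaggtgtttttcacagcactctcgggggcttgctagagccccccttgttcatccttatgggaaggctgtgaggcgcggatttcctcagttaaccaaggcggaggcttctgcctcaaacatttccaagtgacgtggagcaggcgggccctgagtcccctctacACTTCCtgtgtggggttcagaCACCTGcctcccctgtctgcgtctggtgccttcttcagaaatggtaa

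Only these exact letters were searched, on both strands, so other forms of an E-box or ETS site in the windows were not counted. The Cd3g window held 2 matches of CACCTG and 0 of ACTTCC, whereas those of Cd3d and Cd3e held 1 of each. The 2 kinds of core did not overlap in any window. Of the 10 members, 6 had an entry in the promoter table, these 3 together with Cd247, Cd5 and Cd8a. CACCTG was present in 5 of the 6 and ACTTCC in 4, and the Cd8a window had neither of these. Over the 32851 windows of this length in the table, 20.2% held CACCTG and 23.8% held ACTTCC, on either strand. The letters were chosen with the sequences in view, and a match describes the window and no binding.

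Cd3g, the gamma chain, had the largest increase among the members. Its log2 values were 6.19, 5.99, 5.92, 6.07 and 6.07 in control mice 1 to 5 and 6.56, 6.38, 6.54, 6.47 and 6.83 in Aldara-treated mice 1 to 5. Every Aldara-treated mouse lay above every control mouse, and Aldara replicate 5 was the highest. The means were 6.05 ± 0.10 (SD, n = 5) and 6.56 ± 0.17 (SD, n = 5), a log2 difference of 0.51 (standard error 0.08, 95% interval 0.34 to 0.67) or 1.42-fold. The adjusted p was 3.1e-04 from limma, and the exact two-sided permutation test gave p = 0.0079, the smallest that 5 mice against 5 allow. Without Aldara replicate 5 the difference was 0.44.

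Cd3d, the delta chain, which pairs with CD3 epsilon, had log2 values of 5.57, 5.59, 5.70, 5.74 and 5.60 in control mice and 5.59, 5.74, 5.65, 5.74 and 5.62 in Aldara-treated mice. The ranges of the groups coincided almost fully, and the difference was 0.027 with a 95% interval of -0.069 to 0.12 (adjusted p = 0.67 from limma). Cd3e, the epsilon chain, which is present in 2 copies per receptor, had 7.47, 7.44, 7.36, 7.59 and 7.26 in control mice and 7.43, 7.67, 7.58, 7.47 and 7.54 in Aldara-treated mice. The groups overlapped, with 1 Aldara-treated mouse above the highest control mouse, and the difference of 0.11 (95% interval -0.019 to 0.25) did not pass (adjusted p = 0.18 from limma). Cd247, the zeta chain, had log2 values of 6.36 to 6.56 in control mice and 6.34 to 6.58 in Aldara-treated mice, and a difference of -0.018 (95% interval -0.14 to 0.11, adjusted p = 0.84 from limma). For these 3 chains the 95% intervals hold 0, and as folds they run from 0.954-fold to 1.09-fold for Cd3d, from 0.987-fold to 1.19-fold for Cd3e and from 0.906-fold to 1.08-fold for Cd247.

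Whether the signals of 2 members changed unequally was tested on their difference within each array, for 6 pairs of members, with p-values adjusted over the 6. These are differences of probeset signal. At such low values and without a detection call, they cannot be read as unequal changes of transcript. Cd3g rose by more than Cd3d in signal. The difference between them was 0.22 to 0.62 in control mice and 0.64 to 1.21 in Aldara-treated mice, without overlap, so that their changes differed by 0.48 on the log2 scale (95% interval 0.20 to 0.76, exact two-sided permutation test, adjusted p = 0.024, n = 5 per group). Against Cd3e, the change of Cd3g was larger by 0.39 (95% interval 0.13 to 0.66, adjusted p = 0.036 from the exact permutation test), with an overlap of the groups. That call did not survive the removal of any of Aldara replicates 1, 3, 4 and 5 or of control replicates 3 and 4, each with an adjusted p of 0.060 from the exact permutation test. The changes of Cd3e and Cd3d differed by 0.087 (95% interval -0.063 to 0.24, adjusted p = 0.24 from the exact permutation test).

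The coreceptor genes moved in opposite directions. Cd8b1, the beta chain of CD8, had log2 values of 6.27, 6.21, 6.16, 6.24 and 6.25 in control mice and 6.60, 6.59, 6.67, 6.60 and 6.61 in Aldara-treated mice. The groups were apart by 0.32 between the highest control and the lowest Aldara-treated mouse, the widest gap among the 10 members, and the Aldara-treated mice lay close together except for replicate 3, the highest. The means were 6.23 ± 0.043 (SD, n = 5) and 6.61 ± 0.032 (SD, n = 5), a log2 difference of 0.39 (standard error 0.03, 95% interval 0.32 to 0.45, adjusted p = 1.2e-06 from limma) or 1.31-fold. Of all probesets tested, 1.81% had a smaller p.

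Cd8a, the alpha chain, which forms dimers with itself or with the beta chain, had log2 values of 6.96, 6.95, 7.04, 7.10 and 6.93 in control mice and 7.14, 7.24, 7.35, 7.08 and 7.10 in Aldara-treated mice. Aldara replicates 1, 2 and 3 lay above every control mouse, while replicates 4 and 5 lay just below the highest of them. The difference was 0.19 (standard error 0.05, 95% interval 0.07 to 0.30), or 1.14-fold (adjusted p = 0.019 from limma, p = 0.024 from the exact permutation test). Its change was smaller than that of Cd8b1 by 0.20 on the log2 scale (95% interval of the difference of changes -0.34 to -0.064, adjusted p = 0.032 from the exact permutation test over 6 pairs). This last call did not survive the removal of any of Aldara replicates 4 and 5 or of control replicates 3 and 4, with an adjusted p of 0.060 from the exact permutation test in each case.

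Cd4, whose product binds MHC class II on helper T cells and is also found on some myeloid cells, had log2 values of 7.53, 7.36, 7.41, 7.54 and 7.47 in control mice and 7.16, 7.09, 7.24, 7.05 and 7.16 in Aldara-treated mice. Every Aldara-treated mouse lay below every control mouse, by at least 0.12. The means were 7.46 ± 0.08 (SD, n = 5) and 7.14 ± 0.07 (SD, n = 5), a log2 difference of -0.32 (standard error 0.04, 95% interval -0.42 to -0.22), or 0.800-fold (adjusted p = 1.7e-04 from limma, p = 0.0079 from the exact permutation test). Of all probesets tested, 99.1% had a higher difference than Cd4. Cd8a and Cd4 changed unequally by 0.51 (95% interval 0.38 to 0.63, adjusted p = 0.024 from the exact permutation test over 6 pairs), and within arrays the groups did not overlap. Without any 1 array, the difference of Cd4 stayed between -0.35 and -0.30.

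**Figure D2:**
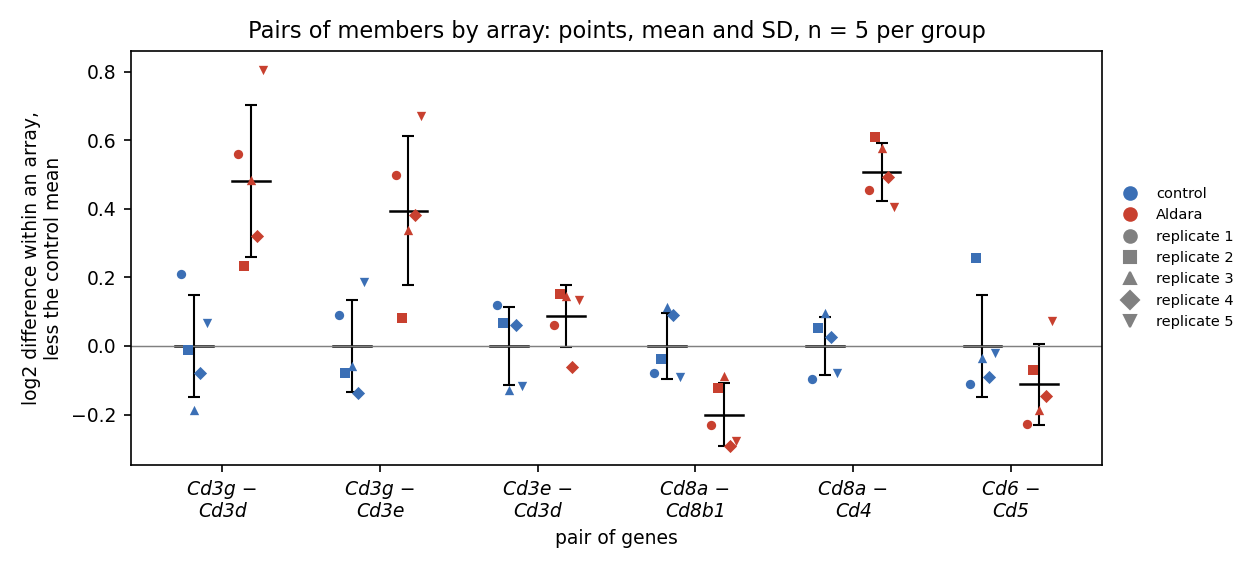
Difference of the log2 values of 2 genes within an array, less its mean over control arrays (vertical axis), for 6 pairs of members (horizontal axis), in 5 control (blue) and 5 Aldara arrays (red), with lines for the mean and bars for the SD. The Aldara points of Cd3g against Cd3d and of Cd8a against Cd4 all lie above the control points, by 0.48 and 0.51 on average, and those of Cd3e against Cd3d overlap them.

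Of the receptors that adjust the signal, Cd6 passed the test, and Cd5 and Cd28 did not. Cd6, which binds the adhesion molecule ALCAM, had log2 values of 7.11, 7.18, 7.07, 7.04 and 7.13 in control mice and 6.89, 7.07, 6.99, 7.0 and 7.04 in Aldara-treated mice. The groups overlapped, with 3 Aldara-treated mice below the lowest control mouse. The difference of -0.11 (standard error 0.04, 95% interval -0.20 to -0.027) passed narrowly (adjusted p = 0.045 from limma, p = 0.024 from the exact permutation test). It did not hold once any of Aldara replicates 1, 3 and 4 or control replicates 1, 2, 3 and 5 was left out, with differences of -0.13 to -0.084 over all 10 single arrays left out, and it was also lost by the methods' t-test (adjusted p = 0.064). After a shift that brought the median of all differences to 0, that of Cd6 was -0.070 (adjusted p = 0.22 from limma). Cd5, a relative of CD6 that dampens receptor signals, ranged from 7.02 to 7.32 in control mice and from 7.07 to 7.27 in Aldara-treated mice, with means of 7.21 in both and a 95% interval of the difference from -0.12 to 0.12 (adjusted p = 1.00 from limma). The changes of Cd6 and Cd5 differed by -0.11 (95% interval -0.31 to 0.084, adjusted p = 0.24 from the exact permutation test over 6 pairs). Cd28, the receptor for the costimulatory ligands CD80 and CD86, ranged from 5.74 to 5.88 in control mice and from 5.78 to 5.89 in Aldara-treated mice, with a difference of 0.035 (95% interval -0.043 to 0.11, adjusted p = 0.49 from limma).

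In 3 members the groups did not overlap. Cd3g and Cd8b1 lay wholly above and Cd4 wholly below, 2 and 1 of 10 members, where 10.5% of all probesets tested lay wholly above and 15.3% wholly below. The directions of the 5 calls were the same under 3 other scalings of the arrays. Centring the arrays on a common median moved the differences of Cd3g, Cd8b1, Cd8a and Cd4 to 0.46, 0.34, 0.14 and -0.37, and shifting the median of all differences to 0 moved them to 0.55, 0.43, 0.23 and -0.28, all 4 still past the threshold. For Cd3d, Cd247, Cd5 and Cd28, none of which passed under any of these scalings, the sign of the difference depended on the scaling.

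**Figure D3:**
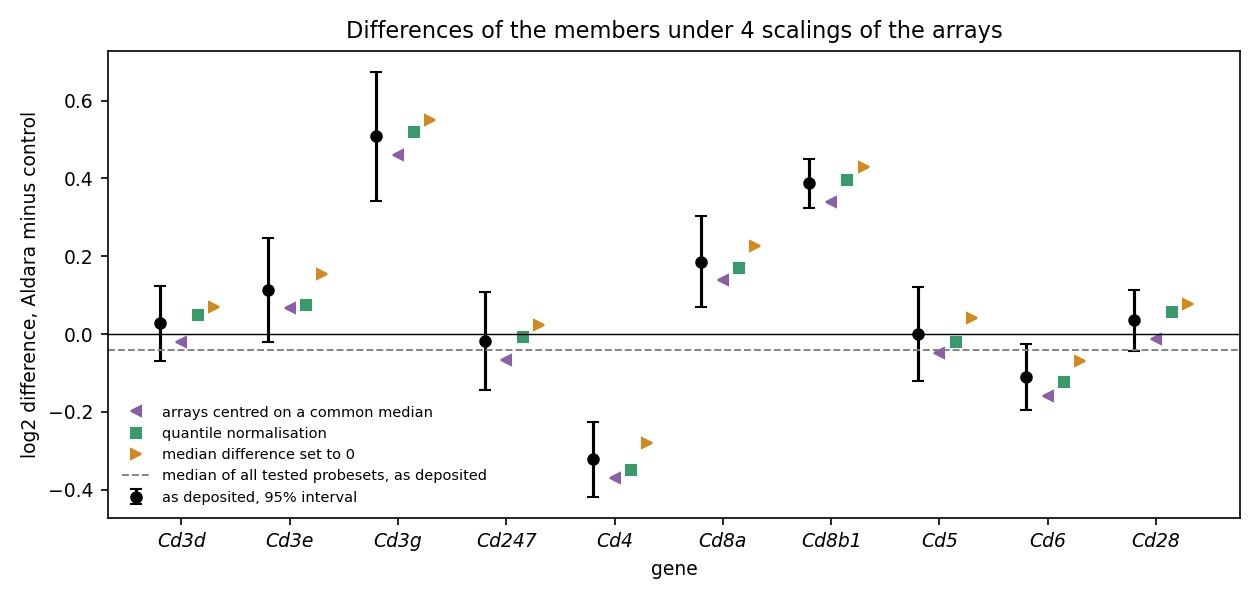
Log2 difference, Aldara minus control (vertical axis), of the 10 genes (horizontal axis), as deposited (black points, with 95% intervals from limma) and under 3 other scalings (coloured points). The dashed line is the median of all tested probesets as deposited, at -0.041. Cd3g and Cd8b1 are above 0.3 and Cd4 is below -0.2 in each scaling.

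Within groups the members followed one another loosely. After each group's mean was subtracted, correlations over the 10 arrays among the 45 pairs of members had a median of 0.17 and ran from -0.55 for Cd3d with Cd3g to 0.76 for Cd4 with Cd28, and 16 were below 0. The genes whose values followed Cd3g most closely in this way were Bri3, Mad2l2 and Cklf, with r of 0.94 each. For Cd4 they were Sox9, Dennd1c and 1700003E16Rik (0.94 each), for Cd8a Aldh16a1, Gm648 and Il17rc (0.93 to 0.94), for Cd8b1 Rnf138rt1, Lhx9 and Cfap161 (0.93 to 0.97), and for Cd6 Traf6, Scn2a and Map1lc3a (0.90 to 0.94). None of these was a member. The points are 10 arrays that share 1 normalisation. The closest of 21789 probesets with 1 symbol can correlate highly over so few points, so these values are a description.

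The variable chains of the receptor were examined through probesets of gene segments. Constant-region genes of the list drawn up for them were not analysed here, apart from Ptcra, the partner of the beta chain in immature T cells, at a difference of -0.078 (adjusted p = 0.13 from limma). Instead, all 52 probesets with a segment symbol were taken, a choice made after the symbols were seen. Several symbols were carried by 38 of 45 probesets of alpha segments, 1 of 2 of beta segments and 3 of 4 of gamma segments. Some alpha probesets with the same symbols gave nearly equal values, so the 45 are not independent measurements. None of 45 probesets of alpha segments, 2 of beta segments and 1 of delta segments passed, with differences between -0.095 and 0.11. Mean log2 values of alpha probesets in control mice reached 9.08, above the array medians of 8.1 to 8.14, which no member reached. Others were as low as 4.84. Whether these probesets measure receptor transcripts in brain was not tested, so their unchanged signal does not show unchanged receptor chains. Over all 52 probesets, 2 were higher and 0 lower, beside 12.4% higher and 21% lower among all probesets tested. Both were among the 4 probesets of gamma segments, which belong to gamma delta T cells. They were shared by Trgv2, Trgv4 and Trgv6 and so not independent. The first had log2 values of 5.29 to 5.69 in control mice and 5.70 to 5.84 in Aldara-treated mice, a difference of 0.24 (standard error 0.07, adjusted p = 0.014 from limma). The second had 5.49 to 5.76 against 5.66 to 5.88, with an overlap and a difference of 0.18 (standard error 0.06, adjusted p = 0.036 from limma).

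Genes that act behind the receptor moved in both directions. Of 26 measured genes of T cell receptor signalling, 10 were higher, 3 were lower and 13 did not pass, with a median difference of 0.055 against -0.041 over all probesets tested. The background for the counts of this list and of those below is 12.4% higher and 21% lower over all probesets tested. The 4 with the smallest p were Ptprc (CD45, the phosphatase of all leukocytes) at a log2 difference of 3.05 (standard error 0.09), Lcp2 (the adapter SLP-76) at 1.83 (standard error 0.07), Vav1 (an exchange factor of blood cells) at 2.06 (standard error 0.08) and Sla (an adapter that dampens receptor signals) at 0.80 (standard error 0.04). Those lower were Rasgrp1 at -0.14, Plcg1 at -0.16 and Prkcq at -0.14, genes that neurons or other brain cells also express. Zap70, the kinase that docks on phosphorylated CD3 chains, had a difference of 0.0018 (adjusted p = 0.98 from limma), and Lat, the adapter it phosphorylates, one of 0.046 (adjusted p = 0.43 from limma), both named after their values were seen.

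Of 25 other surface molecules of T cells, 9 were higher and 1 was lower, Thy1 at -0.17, which neurons carry too. Ly9, a receptor of the SLAM family, had a difference of 1.62 (standard error 0.06), Havcr2 (TIM-3), which myeloid cells carry as well, 1.2 (standard error 0.10), Il2rb, a chain of the interleukin-2 and interleukin-15 receptors of T and natural killer cells, 0.60 (standard error 0.06), and the activation marker Cd69 0.67 (standard error 0.07). Of 12 transcription factors of the T lineage, 3 were higher, Runx3 at 0.42, Ikzf3 at 0.20 and Zbtb7b at 0.19. Another 3 were lower, Bcl11b at -0.24, Satb1 at -0.17 and Tox at -0.079, where 21% of all probesets tested were lower. Runx3 acts in CD8 T cells and Zbtb7b in CD4 T cells, and the 3 lower genes are also expressed by neurons. Of 7 measured ligands of the coreceptors, CD28 and CD6, 6 were higher, among them B2m, the light chain of MHC class I, at 1.57 (standard error 0.03), H2-Ab1, a class II chain, at 1.04 (standard error 0.13), Cd86 at 0.76 (standard error 0.09) and Cd80 at 0.45 (standard error 0.04). Alcam, the ligand of CD6, was lower at -0.16 (standard error 0.02).

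**Figure D4:**
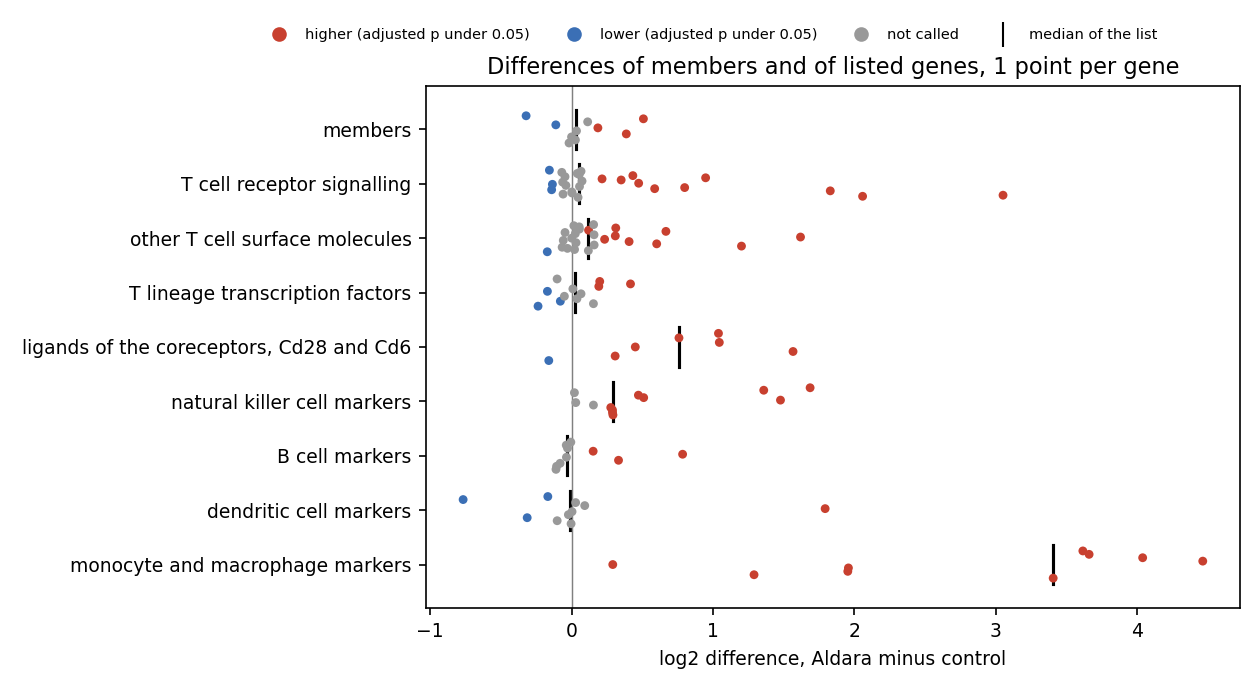
Log2 difference, Aldara minus control (horizontal axis), of the members and of the genes of 8 lists (rows), 1 point per gene, red for higher, blue for lower and grey for not called by limma, with a black line at the median of each list. The members lie between -0.32 and 0.51, while monocyte and macrophage markers have a median of 3.41.

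Markers of cells that share some of these genes moved as well. Of 12 natural killer cell markers, 9 were higher and 0 lower. The sum of their unlogged values was 1003 to 1084 in control mice and 1553 to 2084 in Aldara-treated mice. Aldara replicate 5 stood at 2084 and the other Aldara-treated mice reached at most 1651. Among Aldara-treated mice, this array also had the highest sums for the ligands and for dendritic cell, neutrophil, neuron and oligodendrocyte markers. It had the lowest sums for T lineage transcription factors and for B cell and microglia markers. Gzma and Nkg7, which cytotoxic T cells express too, rose by 1.36 (standard error 0.09) and 1.69 (standard error 0.15) on the log2 scale, Ncr1, a receptor of natural killer cells, by 0.47 (standard error 0.05) and Klrd1 (CD94) by 0.51 (standard error 0.07). All 9 monocyte and macrophage markers were higher, such as Lyz2 at 3.62 and Adgre1 at 3.66, and their sum went from 1268 to 1391 up to 9831 to 12564. Of 10 dendritic cell markers, Itgax was higher at 1.79, Siglech, Cd209a and Zbtb46 were lower at -0.77, -0.31 and -0.17, and Clec9a and Xcr1, markers of the dendritic cells that carry CD8 alpha, did not pass (0.029 and 0.0033). Their summed values overlapped, at 1585 to 1637 in control mice and 1567 to 1769 in Aldara-treated mice. Without Itgax the sum of the other 9 was 1488 to 1529 in control mice and 1261 to 1330 in Aldara-treated mice. Siglech, which had the largest fall of these 9, is counted among the microglia markers as well. Sums without the gene of the largest difference were added after the data were seen.

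Of 10 B cell markers, Cd79b, Jchain and Cd22 were higher at 0.79, 0.33 and 0.15, while the other 7, Cd79a, Ms4a1, Pax5 and Blk among them, did not pass and had differences below 0. The sum was 761 to 823 in control mice against 827 to 959, and without Cd79b it overlapped, at 624 to 667 against 617 to 671. Of 10 neutrophil markers, Csf3r, which monocytes express too, was higher at 1.14, and the other 9 did not pass, 5 with differences above 0 and 4 below. The sums of 800 to 873 against 980 to 996 overlapped without Csf3r, at 673 to 708 against 673 to 716. Of 8 microglia markers, 5 were higher and 2 lower, among them Trem2 and Tmem119 at 0.79 and 0.86 and Siglech and Gpr34 at -0.77 and -0.27, with sums of 2845 to 3085 against 3468 to 4514. The 3 measured erythrocyte markers Epb42, Slc4a1 and Alas2 did not pass, with differences of -0.080 to -0.053 and summed values of 347 to 393 in control mice and 337 to 380 in Aldara-treated mice. Of the resident cells, 6 of 7 neuron markers, 4 of 6 astrocyte markers and 1 of 5 oligodendrocyte markers were lower, such as Rbfox3 at -0.19, Slc1a2 at -0.57 and Mbp at -0.21, and 0, 2 and 1 were higher, such as Gfap at 1.73 and Mag at 0.11. Sums were 39056 to 40002 against 35656 to 36441 for neurons, 23332 to 24321 against 21263 to 22592 for astrocytes and 14475 to 15072 against 13688 to 14705 for oligodendrocytes. RMA values have no 0, so no marker can be called absent, and the part that these cell types have in the changes of Cd3g, Cd8a, Cd8b1, Cd4 and Cd6 was not tested.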

How the data were processed

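RNA of perfused whole brains from 5 control and 5 Aldara-treated mice was labelled and profiled on Affymetrix Mouse Gene ST arrays. The authors normalised them by RMA, using GeneSpring GX, and deposited log2 values (RMA comprises background subtraction, quantile normalisation and summary of probes). Which library file and genome build underlie them is not given in the sources used here. Scanner values were not used here, so these steps could not be repeated. Quantile normalisation ties the arrays together, and small differences move with the scaling.

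Probesets were named from the platform annotation (21789 with 1 symbol, 1621 with several, 5446 with none), and the 23410 with a symbol were tested with limma 3.58.1 under R 4.3.3 (lmFit, then eBayes), without covariates, with Benjamini-Hochberg adjustment over all of them and a threshold of 0.05. A gene of a list with several probesets was represented by that with the highest mean. Single members and pairs of members were also compared by exact two-sided permutation over the 10 arrays. The test was checked on simulated data. All 10 members are named, with up to 4 genes of each list by p, all where 5 or fewer passed, and the 3 genes most alike to each called member. Further genes were named after their values were seen. The members and lists were chosen with earlier results of these data known. Promoters came from RefSeq (GRCm38.p6). The alternatives were other scalings, sets of probesets, variance models, array weights, the methods' t-test, a replicate block, unlogged means, a stricter threshold and leaving out each array. Batches could not be examined, since the labels name none, and whether the mice shared cages or litters is not known.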

Additional observations from a re-analysis of the deposited data

Results flagged for a closer look

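Among 20 sets of 5 values (10 members in each group), 2 held a value far from the others by Dixon's test, where chance gives about 1 in 20. The value of Cd8b1 in Aldara replicate 3 was 6.67, the highest of its group, with the next at 6.61. For Cd5, Aldara replicate 5 stood lowest at 7.07, with the next at 7.21. Leaving out the first array left Cd8b1 higher, and leaving out the second left Cd5 not called.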

How the results depend on the processing

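The calls of Cd3g, Cd8b1, Cd8a and Cd4 kept their direction and passed at an adjusted p under 0.05 in each alternative that tested them (Cd8a did not at 0.01, which leaves 2 members higher), and the 5 other members outside Cd6 passed under none. No member reached the median of the mean values, so with dimmer probesets left out no member could be tested, and each member had 1 probeset, so a mean over probesets changes nothing. Cd6 did not pass with the median difference set to 0 (-0.070), nor, at an unchanged difference of -0.11, with all 28856 probesets (adjusted p = 0.053), an intensity trend and robust prior (adjusted p = 0.083) or the methods' t-test (adjusted p = 0.064), which leaves 1 member lower in place of 2 under these settings and at an adjusted p under 0.01. With single arrays left out, Cd6 ranged from -0.13 to -0.084, lower members from 1 to 2, the difference of changes of Cd3g and Cd3e from 0.32 to 0.47 and that of Cd8a and Cd8b1 from -0.23 to -0.17. Among brighter probesets alone, 5 genes of T cell receptor signalling, 0 other surface molecules, 0 transcription factors and 1 ligand were higher, since fewer genes were tested. With the arrays centred, 6 genes of T cell receptor signalling were lower in place of 3.

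Over the 23410 probesets tested, 2901 were higher and 4926 lower. The counts were 2299 and 9606 with the arrays centred and 3833 and 2760 with the median difference set to 0, which moves all differences by 0.041. Same-numbered mice correlated at -0.11 to 0.25 in their deviations from the group means, and 2 of 5 Aldara arrays correlated best with their own number. So few arrays cannot decide whether the numbers pair the mice. With the replicate block, 2701 probesets were higher and 4421 lower, and 3 members were higher and 2 lower (Cd3g adjusted p = 6.0e-04, Cd8b1 1.2e-04, Cd8a 0.023, Cd4 0.0015, Cd6 0.044).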
